A study of Mus musculus with 27 samples.

Results

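The transcription factors described here set the identity of myeloid cells. They are the C/EBP proteins Cebpa, Cebpb, Cebpd and Cebpe, the Ets factor PU.1 (listed on the array under its older symbol Sfpi1), the large Maf factor Maf, the nuclear receptor Nr4a1, the zinc finger factor Klf4 and the interferon regulatory factor family member Irf4. A probe was taken where its symbol in the deposited intensity table equalled one of these 9 names, which gave 16 of 45281 probes and 9 of 30869 symbols. Cebpa, Cebpb, Sfpi1, Nr4a1 and Irf4 had 1 probe each, Cebpd and Maf 2, Klf4 3 and Cebpe 4. Of the 16 probes, 14 were above background on at least 1 colon array, and these covered 8 of the 9 genes.

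The list was chosen by a reading of results of these same arrays, and Cebpe was selected on its opposite genotype differences in monocytes and macrophages. The differences between Mbd2-/- and WT cells, and those of Cebpe between macrophages and monocytes, are therefore given as descriptions without a p-value. Which values put the other genes on the list is not recorded.

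Monocytes, macrophages and type 1 conventional dendritic cells (cDC1s) had been sorted from the colon lamina propria of adult WT and Mbd2-/- littermates on a C57BL/6 background, all given 2% dextran sulfate sodium (DSS) in the drinking water to induce colitis. Neutrophils and eosinophils were gated out, monocytes were Ly6C+ and CD11b+, macrophages Ly6C-, CD11b+, F4/80+ and MHC-II+, and cDC1s CD11b-, CD11c+ and CD103+. The Mbd2-/- mice lacked the methyl-CpG binding protein Mbd2 in every cell of the body, not in the sorted cells alone. There were 5 arrays of WT monocytes, 5 of Mbd2-/- monocytes, 5 of WT macrophages, 5 of Mbd2-/- macrophages, 2 of WT cDC1s and 3 of Mbd2-/- cDC1s, each from the sorted cells of 1 or several mice. For splenic CD4 T cells, labelled as taken 6 weeks after T cell transfer, with no mention of DSS, there was 1 array of each genotype.

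Mean intensity ran from 172 to 353 over the 25 colon arrays, with 16024 to 18608 probes above background. The Mbd2 probe was above background on 0 of 12 WT and 0 of 13 Mbd2-/- colon arrays, so it gives no check of the genotype labels. Macrophage markers (9 of 9 on the array) summed to 41489 to 50107 in the macrophage groups, 17346 to 22256 in the monocyte groups and 1508 to 4318 in the cDC1 groups, in linear normalized intensity. The cDC1 markers (8 of 9 on the array) summed to at least 13075 in cDC1s and to at most 2243 elsewhere. Monocyte markers (6 of 7 on the array) summed to 14402 to 21731 in monocytes and to 4954 to 9223 in macrophages. The Ccr2 probe among them was near background in every group. It was above background on 1 WT and 0 Mbd2-/- monocyte arrays and on 2 Mbd2-/- macrophage arrays, so it does not mark monocytes here. Epithelial markers were above background in every sort (at least 6 of 7 genes on every array, with sums of 3357 to 10687), and their part in the results was not tested.

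Myeloid development runs through a small set of DNA binding factors that act together. PU.1 and C/EBP-alpha open the enhancers of growth factor receptors in progenitors, C/EBP-beta and C/EBP-delta act in mature and inflamed cells, and C/EBP-epsilon drives the late granule genes of neutrophils and eosinophils. Klf4 and Nr4a1 are required for monocyte subsets, Maf restrains macrophage self-renewal and promotes Il10, and Irf4 acts in cDC2s and in alternatively activated macrophages, while cDC1s depend on Irf8 and Batf3. Mbd2 binds methylated CpG dinucleotides and recruits repressors, which is why CpG content at the start of these genes is of interest.

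RefSeq promoters on GRCm38.p6 were used here for 5 of the 9 genes (those of Cebpe, Cebpd, Maf and the PU.1 gene were not analysed here), as 300-base windows, 250 bases before to 50 after the start of the gene. Over 32851 such windows the median was 7 CpG dinucleotides. Cebpb held 50 (99.1% of windows held fewer), Klf4 40 (96.1%), Nr4a1 35 (93.0%), Cebpa 29 (87.1%) and Irf4 11 (58.6%). The 250 bases upstream of Cebpb and Irf4 are printed because Cebpb had the most CpG of the 5 and Irf4 the fewest. Cebpb is also the member that differed most between cell types, and Irf4 the one that was lower in Mbd2-/- cells without overlap in both monocytes and macrophages. Capitals mark CpG dinucleotides.
Cebpb, chr2:167688665-167688914, plus strand: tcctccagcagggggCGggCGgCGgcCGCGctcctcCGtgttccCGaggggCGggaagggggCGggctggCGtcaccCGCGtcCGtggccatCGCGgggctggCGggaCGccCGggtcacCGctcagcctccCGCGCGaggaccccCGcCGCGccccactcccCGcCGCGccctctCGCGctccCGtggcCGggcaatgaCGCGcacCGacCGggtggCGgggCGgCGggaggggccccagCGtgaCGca
Irf4, chr13:30748983-30749232, plus strand: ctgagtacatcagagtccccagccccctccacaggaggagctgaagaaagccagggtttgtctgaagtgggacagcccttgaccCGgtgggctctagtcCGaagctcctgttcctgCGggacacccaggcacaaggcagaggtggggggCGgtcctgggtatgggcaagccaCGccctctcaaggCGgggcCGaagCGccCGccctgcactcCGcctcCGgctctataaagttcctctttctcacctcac
The upstream stretch held 41 CpG for Cebpb and 11 for Irf4. Neither a C/EBP core (TTNNGNAA, either strand), held by 40.7% of all windows, nor a PU.1 core (GAGGAAGT, either strand), held by 3.20%, was found in the 5 windows, which says only that these letters do not occur there. DNA methylation was not measured.

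Levels below are log2 normalized intensities, a scale on which 1 unit is a 2-fold change, and a level is never set against that of another probe. A gene passed the test in a comparison where limma gave an adjusted p under 0.05 and a log2 difference of at least 1. For a gene with several probes the brightest was used. In sorted pools, a lower level in each cell and fewer cells that carry the transcript cannot be told apart.

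**Figure D1:**
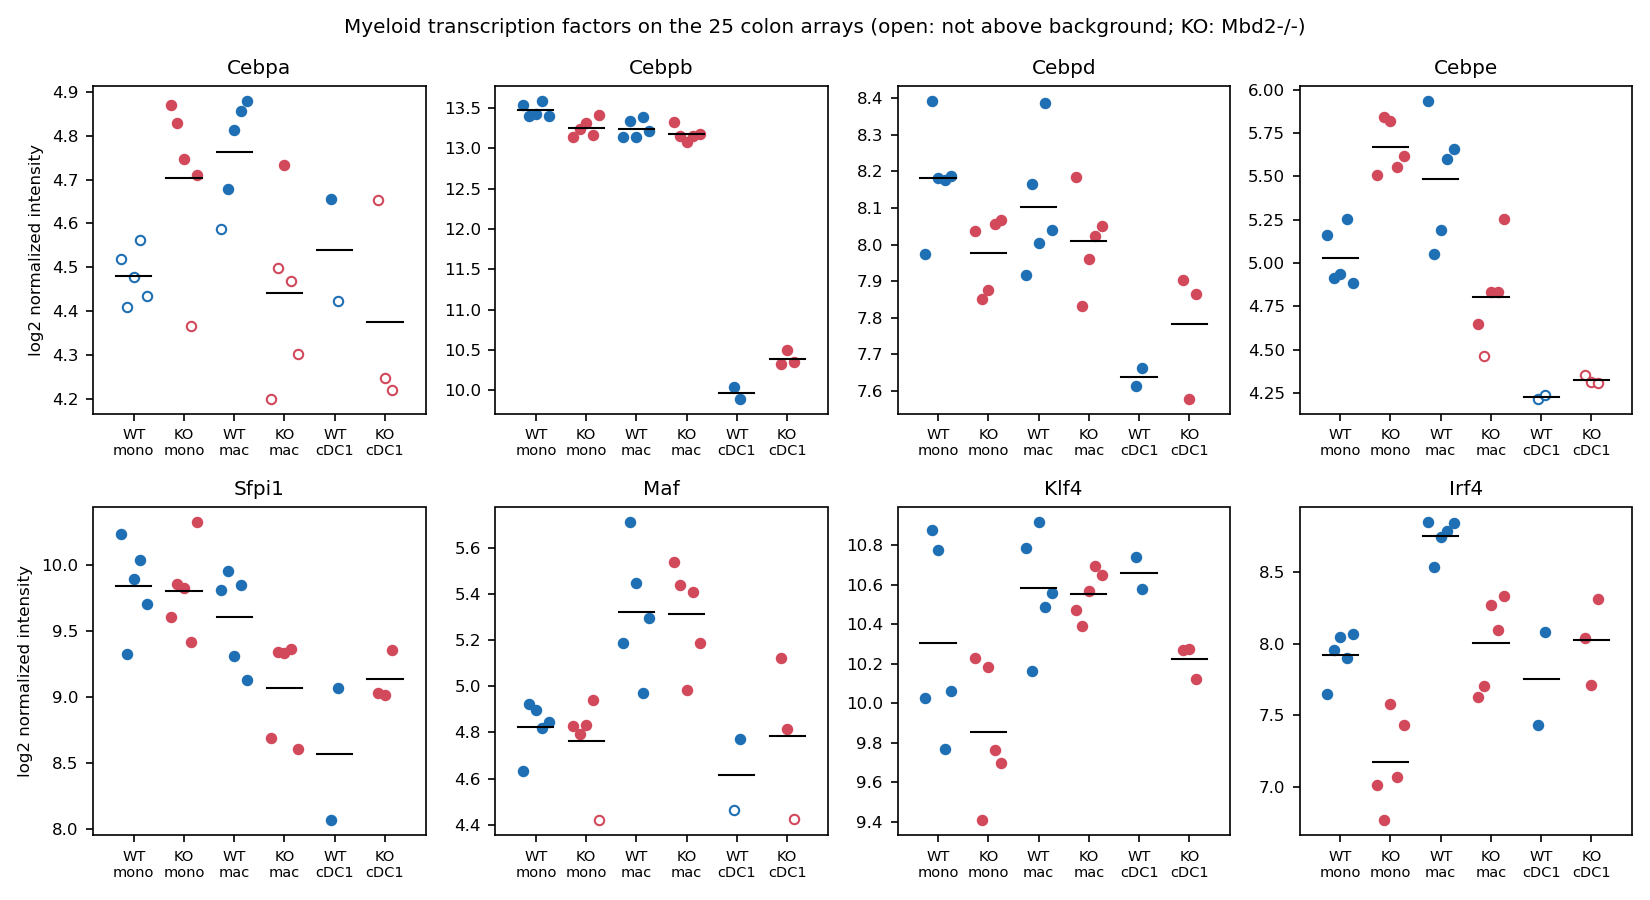
Log2 normalized intensity (vertical axis, its range set for each gene) of the 8 genes above background on any colon array, by cell type and genotype (mono, monocyte; mac, macrophage; KO, Mbd2-/-). Each point is an array, the line is the group mean and open points were not above background; Cebpb drops in cDC1s, Cebpe is at background there, and Irf4 is lower in Mbd2-/- monocytes and macrophages than in their WT counterparts.

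Cebpe was above background in monocytes and macrophages and in no cDC1 array. In WT monocytes its level was 5.16, 4.92, 4.94, 5.25 and 4.89 on arrays 1 to 5, and in Mbd2-/- monocytes it was 5.82, 5.55, 5.62, 5.50 and 5.84 on arrays 6 to 10. On this probe, after normalization, every Mbd2-/- monocyte array lay above every WT one. In WT macrophages it was 5.93, 5.05, 5.19, 5.60 and 5.66 on arrays 11 to 15, and in Mbd2-/- macrophages 4.83, 4.83, 5.25, 4.65 and 4.46 on arrays 16 to 20, the last not above background. Here Mbd2-/- macrophages were the lower group, with array 18 reaching into the WT range. In cDC1s the level was 4.22 and 4.24 in WT and 4.35, 4.31 and 4.31 in Mbd2-/- samples, none of them above background.

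The means of Cebpe ran, from high to low, 5.67 in Mbd2-/- monocytes, 5.49 in WT macrophages, 5.03 in WT monocytes and 4.81 in Mbd2-/- macrophages, and the ranges of neighbours in this order overlapped. The genotype difference (Mbd2-/- minus WT) was 0.64 (95% interval 0.33 to 0.94) in monocytes and -0.68 (-0.98 to -0.38) in macrophages, so that Cebpe was 0.46 higher in WT macrophages than in WT monocytes and 0.86 lower in Mbd2-/- macrophages than in Mbd2-/- monocytes. Arrays were deposited in runs of 6, as many as a BeadChip of this type holds, although no label names the chip. Within the runs the genotype difference was 0.67 and 0.59 in monocytes and -0.83 and -0.66 in macrophages. Monocytes lay in the first 2 runs and macrophages in the next 2, so cell type and run cannot be told apart.

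These levels sat close to background. The deposited intensity of the brightest Cebpe probe was 99.3 to 139 in monocytes, 85.2 to 137 in macrophages and 80.6 to 88.7 in cDC1s, where the 95th percentile of an array's 936 negative control probes lay between 84.8 and 104. The next brightest probe had mean levels of 4.86 in WT and 5.38 in Mbd2-/- monocytes, and 5.16 in WT and 4.70 in Mbd2-/- macrophages, the same directions. Both probes read the same RNA and correlated at r = 0.92 over the 25 arrays. Of the remaining Cebpe probes, 1 was above background on 5 arrays and 1 on none. Over the processing settings tried, the difference ran from 0.23 to 0.69 in monocytes and from -0.79 to -0.24 in macrophages, smallest in size without background correction.

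**Figure D2:**
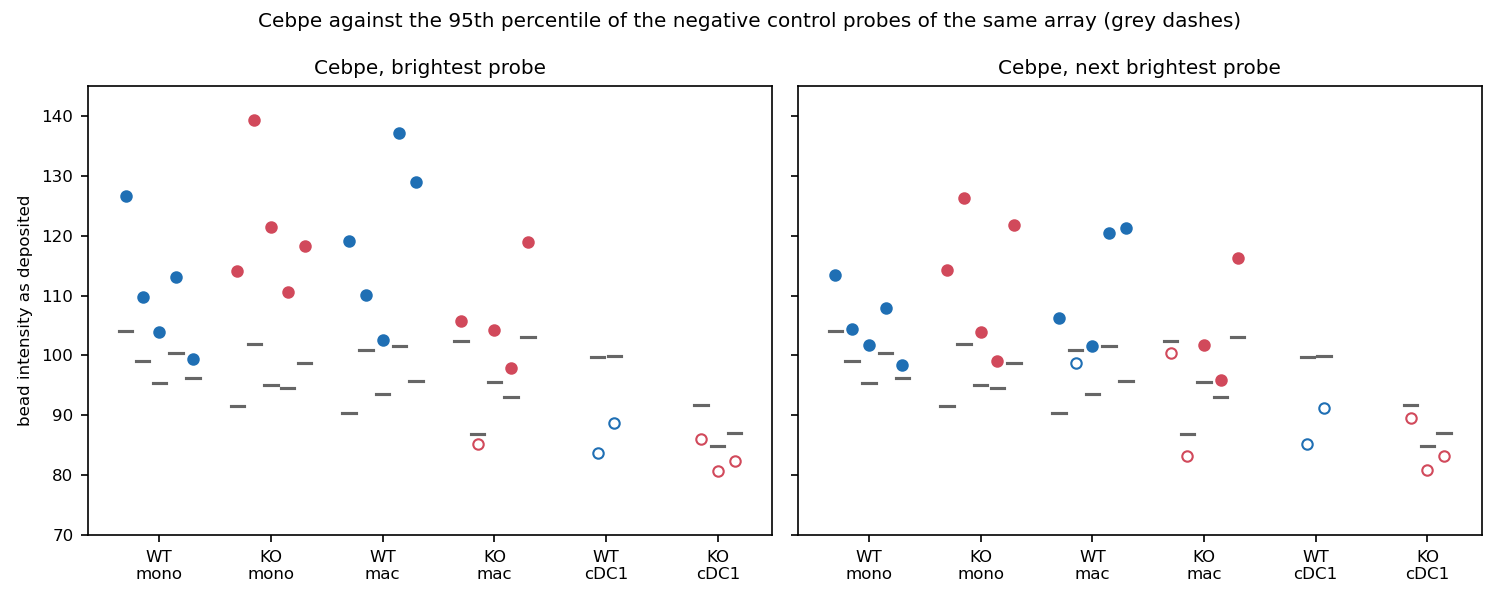
Deposited bead intensity of the 2 brightest Cebpe probes on each colon array (points; filled, above background; KO, Mbd2-/-), beside the 95th percentile of that array's negative controls (grey dashes). Most monocyte and macrophage arrays stand above their dash, and no cDC1 array does.

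Markers of granulocytes, the cells in which C/EBP-epsilon acts, were read on the same arrays. Neutrophil markers (9 of 11 on the array) summed to 3245 to 9197 in WT and 7517 to 9736 in Mbd2-/- monocytes. In linear units S100a8 (mean level 11.39 in WT and 12.22 in Mbd2-/- monocytes) and S100a9 (10.30 and 11.11) weigh most in these sums. Csf3r ran the other way (9.86 and 9.72). Ngp was above background on no WT and 3 Mbd2-/- monocyte arrays, and Camp on 1 and 2. The sums ran the same way as Cebpe in monocytes, and their part in its difference was not tested. In macrophages they were 1652 to 3359 in WT and 2133 to 6751 in Mbd2-/- samples, where Cebpe was lower in Mbd2-/- cells. Eosinophil markers (6 of 7 on the array) summed to 165 to 222 in WT and 185 to 238 in Mbd2-/- monocytes and to 150 to 175 in WT and 164 to 237 in Mbd2-/- macrophages. Epx, which encodes eosinophil peroxidase, and Siglec5 were above background on no colon array, whereas Prg2, which encodes the eosinophil major basic protein, was on every monocyte and macrophage array, and was 0.54 higher in Mbd2-/- monocytes (adjusted p = 0.229) and 0.91 higher in Mbd2-/- macrophages (adjusted p = 0.0204), short of the size needed to pass. Their part was not tested.

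Of the C/EBP-epsilon dependent granule genes, a list of 13, few passed with genotype. In monocytes 11 were tested and 1 passed, Lyz1, which encodes a lysozyme (its probe may also read the near-identical Lyz2) and rose by 2.04 (SE 0.23, adjusted p = 3.29e-05), with a median of 0.44 over the list and -0.03 over all genes, beside 0.450% of all genes passing. In macrophages 10 were tested and 1 passed, Itgb2, the integrin beta 2 chain, which was 1.14 higher (adjusted p = 0.0293) with overlapping groups. The list's values there ran from 0.04 to 1.44, with a median of 0.81 against -0.08 over all genes, so the list lay higher in the Mbd2-/- cells in which Cebpe was lower. In all, 1.28% of genes passed in macrophages. In cDC1s, Ltf (lactoferrin) and Prg2 (major basic protein) of 11 tested passed, at 1.07 and 1.27 higher in Mbd2-/- cells, where 1.77% of genes passed. Ltf is also among the neutrophil markers and Prg2 among the eosinophil markers. In cDC1s the neutrophil markers summed to 689 to 792 in WT and 1187 to 2893 in Mbd2-/- samples. The eosinophil markers summed to 126 to 139 and 156 to 179. Their part was not tested, and genotype and run of arrays cannot be told apart in cDC1s.

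Between cell types the same list moved further. Chi3l3, a chitinase-like protein of alternatively activated and maturing myeloid cells, had mean levels of 12.01 in WT monocytes and 6.46 in WT macrophages, a fall of 5.55 on the log2 scale (SE 0.32, adjusted p = 2.19e-10). In Mbd2-/- cells Chi3l3 was 5.36 lower in macrophages (-5.36, adjusted p = 1.67e-10). Lyz1 ran the other way, at 2.22 higher in WT and 1.15 higher in Mbd2-/- macrophages than in monocytes. Of the 11 granule genes tested in each genotype, 2 rose and 2 fell in WT and 2 rose and 3 fell in Mbd2-/- macrophages against monocytes, where 4.60% and 5.48% of all genes passed.

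The genes whose levels followed Cebpe most closely over the 25 colon arrays, among 14388 genes, were Dnajc12 (r = 0.81), Ugp2 (0.80), Dpep2 (0.80), Sdc4 (0.79) and 0910001A06Rik (0.79). Dpep2 encodes a dipeptidase that acts on leukotrienes, and Sdc4 a heparan sulfate proteoglycan. Their lower levels in cDC1s, which Cebpe shares, carry part of these values: Sdc4 averaged 11.36 in WT monocytes, 11.54 in WT macrophages and 7.49 in WT cDC1s. All the points share arrays, depth and normalization. Among the listed factors, Cebpb (0.71), Sfpi1 (0.57) and Cebpa (0.55) were nearest to Cebpe, and Maf (0.05), Irf4 (-0.02) and Klf4 (-0.29) were farthest.

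Cebpb, the C/EBP protein of inflamed and mature macrophages, was the member with the largest difference between cell types. Its level was 13.54, 13.40, 13.43, 13.59 and 13.40 in WT monocytes and 13.14, 13.34, 13.14, 13.39 and 13.21 in WT macrophages. In WT cDC1s it was 10.04 and 9.90, more than 3 units below every monocyte and macrophage array. It fell by 3.50 from WT monocytes to WT cDC1s (SE 0.08, adjusted p = 3.01e-17). From WT macrophages it fell by 3.27 (SE 0.08, adjusted p = 1.17e-16). In these comparisons 15.7% and 16.4% of all genes passed.

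In Mbd2-/- cells the pattern of Cebpb was the same with a smaller step. The level was 13.31, 13.16, 13.41, 13.14 and 13.24 in monocytes, 13.08, 13.16, 13.18, 13.32 and 13.16 in macrophages, and 10.33, 10.50 and 10.35 in cDC1s. It fell by 2.86 from monocytes to cDC1s (adjusted p = 2.63e-17, with 18.2% of all genes passing). From macrophages it fell by 2.79 (adjusted p = 4.53e-17, with 17.3% passing). Every Mbd2-/- cDC1 array lay above both WT ones, a genotype difference of 0.42 (95% interval 0.23 to 0.62), while in Mbd2-/- monocytes Cebpb was 0.22 lower than in WT with overlapping groups. The WT cDC1 arrays lay in the runs of the monocytes and the Mbd2-/- ones in those of the macrophages or later, so genotype and run cannot be told apart in cDC1s. In all, 32.0% of genes had no overlap between these 2 groups of 2 and 3 arrays. Macrophage markers summed to 1508 to 1565 in WT and 1785 to 4318 in Mbd2-/- cDC1s. Monocyte markers summed to 6675 to 6890 in WT and 7774 to 9877 in Mbd2-/- cDC1s, and the neutrophil sums are given above. The part of these cells in the Cebpb difference was not tested.

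Between macrophages and monocytes Cebpb changed little. It was 0.23 lower in WT macrophages (SE 0.06, adjusted p = 0.0110), below the size needed to pass, and 0.08 lower in Mbd2-/- macrophages (adjusted p = 0.415).

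**Figure D3:**
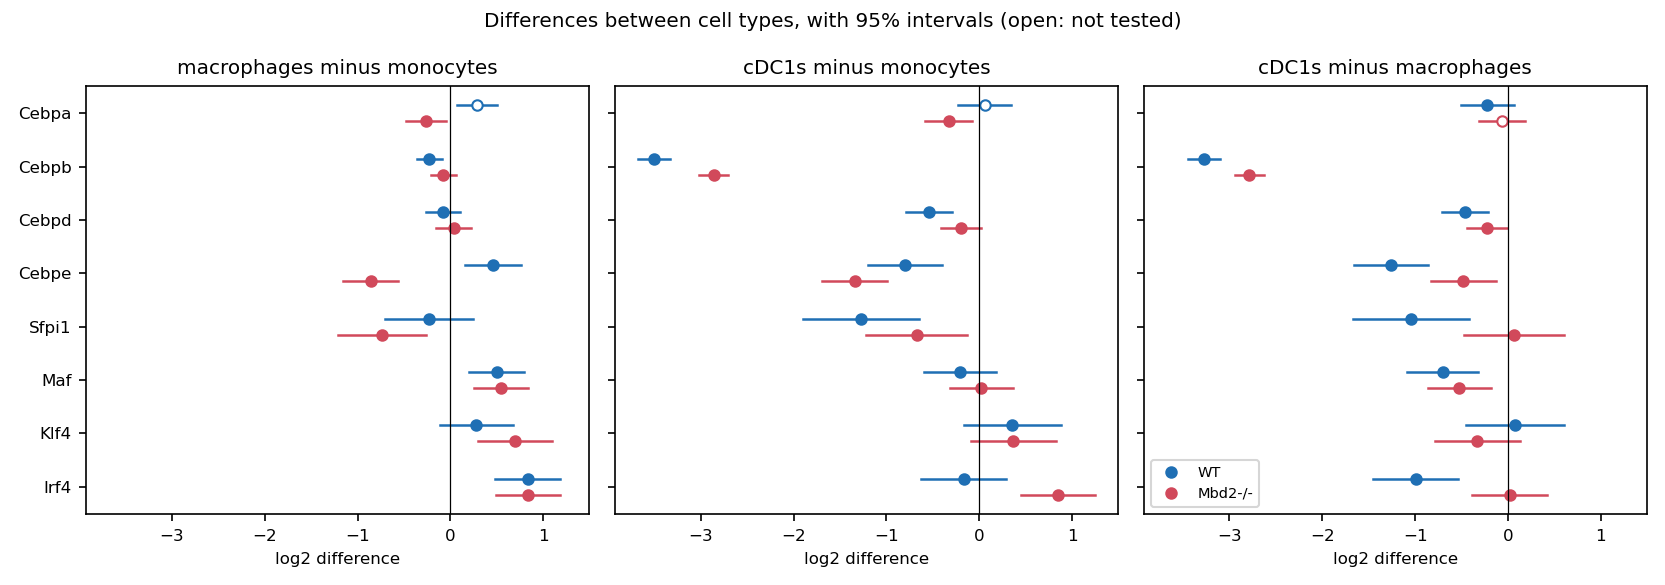
Log2 difference between cell types (horizontal axis) for the 8 genes above background on any colon array, in WT (blue) and Mbd2-/- (red) cells, with 95% intervals from limma; open points were not tested. Cebpb lies between -3.50 and -2.79 in the comparisons with cDC1s, and Irf4 is 0.83 higher in macrophages than in monocytes of both genotypes; the Cebpe values against cDC1s are fitted to a group at background.

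The remaining C/EBP genes differed less. Cebpd, an acute phase factor, ranged from 7.92 to 8.39 in WT monocytes and macrophages and was 7.61 and 7.66 in WT cDC1s, below all of them. It was 0.54 lower in WT cDC1s than in monocytes (SE 0.12, adjusted p = 0.000892) and 0.46 lower than in macrophages (adjusted p = 0.00349). In Mbd2-/- cells these differences were -0.20 (adjusted p = 0.128) and -0.23 (adjusted p = 0.0750). Cebpe was at least 1.88-fold lower in WT cDC1s than in WT macrophages and at least 2.02-fold lower in Mbd2-/- cDC1s than in Mbd2-/- monocytes. Cebpe entered these comparisons only through the macrophage or monocyte arrays, where it is high, so the difference is a description and no p is given. The folds are bounds, set against the dimmest probe above background on each cDC1 array.

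Cebpa, the factor of granulocyte and monocyte progenitors, was near background throughout, with levels from 4.20 to 4.88. It was above background on 0 of 5 WT and 4 of 5 Mbd2-/- monocyte arrays, on 4 of 5 WT and 1 of 5 Mbd2-/- macrophage arrays, and on 1 of 5 cDC1 arrays. In macrophages it was 0.32 lower in Mbd2-/- cells with overlapping groups.

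The wider C/EBP family and its bZIP partners, 13 genes on the array, showed the cDC1 factor Batf3 at 2.04 higher in WT cDC1s than in monocytes (adjusted p = 5.39e-05) and 2.03 higher than in macrophages (adjusted p = 5.96e-05). Of 12 tested, 1 rose and 3 fell in WT cDC1s against monocytes and 1 rose and 2 fell against macrophages. Between macrophages and monocytes none of 12 passed in WT (the smallest adjusted p was 0.000188, at a log2 difference under 1) and 2 passed in Mbd2-/- cells. With genotype, Batf2, an interferon responsive partner, was 1.55 higher in Mbd2-/- monocytes (adjusted p = 0.0324) with overlapping groups and was the only one to pass in any cell type.

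Sfpi1 encodes PU.1, whose dose separates macrophage, granulocyte and dendritic cell fates. Its level was 10.24, 9.33, 9.89, 10.04 and 9.70 in WT monocytes, 9.81, 9.95, 9.31, 9.85 and 9.13 in WT macrophages, and 8.07 and 9.07 in WT cDC1s. Both cDC1 arrays were below every WT monocyte and macrophage array, but they lay 1.00 apart from each other. Sfpi1 fell by 1.27 from WT monocytes (SE 0.30, adjusted p = 0.00181) and by 1.04 from WT macrophages (SE 0.30, adjusted p = 0.00824) to WT cDC1s.

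Neither call held without WT cDC1 array 23. Without it the Sfpi1 difference was -0.77 from monocytes (adjusted p = 0.140) and -0.54 from macrophages (adjusted p = 0.321), with the lone array assumed to vary like the other groups. The difference from macrophages also fell short of the threshold without WT macrophage array 11, 12 or 14, without background correction, with offset 50, with cyclic loess and with the 2 groups fitted alone (adjusted p = 0.0591). T cell markers (6 of 7 on the array) summed to 2782 on array 23 and 634 on the other WT cDC1 array, against 1161, 2287 and 382 on the Mbd2-/- cDC1 arrays and at most 565 in monocytes and macrophages. Epithelial markers summed to 9969 on array 23 and 3357 on array 26. The part of either in the Sfpi1 level was not tested.

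In Mbd2-/- cells Sfpi1 was 9.82, 9.42, 10.32, 9.61 and 9.85 in monocytes, 9.34, 9.36, 8.60, 8.69 and 9.34 in macrophages, and 9.03, 9.01 and 9.36 in cDC1s. Macrophages lay below all monocytes, by 0.74 (SE 0.23, adjusted p = 0.0169), and cDC1s within the macrophage range. The adjusted p of the macrophage difference rose above 0.05 when array 8, 18 or 19 was left out (0.0590, 0.0569 and 0.0538). In macrophages Sfpi1 was 0.54 lower in Mbd2-/- than in WT cells (95% interval -1.01 to -0.07, -0.67 and -0.39 within the runs), with overlapping groups, while in monocytes the difference was -0.03.

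The receptors that PU.1 and C/EBP factors switch on, a list of 10, were mostly lower in cDC1s than in monocytes and macrophages. Beside the shares of all genes given above (15.7% to 18.2%), in WT cDC1s 7 of 10 tested fell against monocytes and 7 of 9 against macrophages, and in Mbd2-/- cDC1s 8 of 10 and 7 of 10. Csf1r, the receptor of macrophage colony stimulating factor, fell by 5.38 from WT macrophages to WT cDC1s (SE 0.27, adjusted p = 1.51e-12). Csf3r, the receptor of granulocyte colony stimulating factor, fell by 4.28 (SE 0.24, adjusted p = 7.25e-12). Between macrophages and monocytes 0 of 10 passed in WT, beside 4.60% of all genes. The smallest adjusted p there was 0.000158, at a log2 difference under 1. In Mbd2-/- cells 3 of 10 passed, beside 5.48% of all genes, where Emr1 rose and Csf2rb and Il6ra fell. Emr1 encodes a surface marker on which macrophages were sorted, so its differences from macrophages cannot be told apart from the gate. It is also among the genes counted as lower in cDC1s than in macrophages. With genotype none of the 10 passed in monocytes (smallest adjusted p = 0.417), macrophages (0.110) or, of 9, in cDC1s (0.0525).

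Irf4 was the member whose genotypes did not overlap in either monocytes or macrophages, lower in Mbd2-/- cells in both. Its level was 7.65, 7.95, 8.04, 7.90 and 8.06 in WT monocytes and 7.58, 7.06, 7.43, 7.01 and 6.77 in Mbd2-/- monocytes. In WT macrophages it was 8.85, 8.53, 8.74, 8.79 and 8.84, and in Mbd2-/- macrophages 8.27, 8.10, 8.33, 7.63 and 7.70. In both cell types every Mbd2-/- array lay below every WT array. The difference was -0.75 (95% interval -1.10 to -0.40) in monocytes and -0.75 (-1.09 to -0.40) in macrophages.

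Within the runs the Irf4 difference was -0.99 and -0.62 in monocytes and -1.04 and -0.58 in macrophages. Over the settings tried it ran from -1.06 to -0.53 in monocytes and from -0.83 to -0.60 in macrophages. Irf4 is also a factor of B and plasma cells, and their markers (6 of 7 on the array) were read beside it. They summed to 521 to 732 in WT and 291 to 514 in Mbd2-/- monocytes, without overlap, and to 761 to 1278 in WT and 462 to 1006 in Mbd2-/- macrophages. Of 5 tested in monocytes 1 passed, Cd79b, a chain of the B cell receptor, which fell by 1.07 (adjusted p = 0.00954), and the list's median was -0.72. Of 6 tested in macrophages none passed (smallest adjusted p = 0.0407, for Cd79b at -0.76), with a median of -0.06. Cd79b also rose from monocytes to macrophages in both genotypes (by 1.05 in WT), as Irf4 was higher there, and cDC1 sums were 187 to 255. Ms4a1 was above background on no monocyte array. The part of these cells in the Irf4 differences was not tested.

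The share of genes with no overlap between the genotypes was 5.12% in monocytes and 5.23% in macrophages. Among the listed factors, 2 of the 7 tested had none in monocytes (Cebpe and Irf4) and 1 of the 8 tested in macrophages (Irf4), and none passed both the p and the 2-fold threshold. Cebpe was chosen on its genotype differences and the list with results of these arrays known. Set beside the shares of all genes, these counts are therefore a description and support nothing.

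Irf4 was also higher in macrophages than in monocytes, by 0.83 in WT (SE 0.17, adjusted p = 0.000794) and by 0.83 in Mbd2-/- cells (SE 0.17, adjusted p = 0.000605), with no overlap in either genotype. In cDC1s its level was 7.43 and 8.08 in WT and 8.04, 7.71 and 8.31 in Mbd2-/- cells, and these ranges overlapped. WT cDC1s were 1.00 below WT macrophages (SE 0.22, adjusted p = 0.00105; without array 23, -0.67 with adjusted p = 0.0823), and Mbd2-/- cDC1s 0.02 above Mbd2-/- macrophages (SE 0.19, adjusted p = 0.954). Irf4 was read at 7.57 and 7.86 on the T cell arrays, and the T cell marker sums of the cDC1 arrays are given above.

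**Figure D4:**
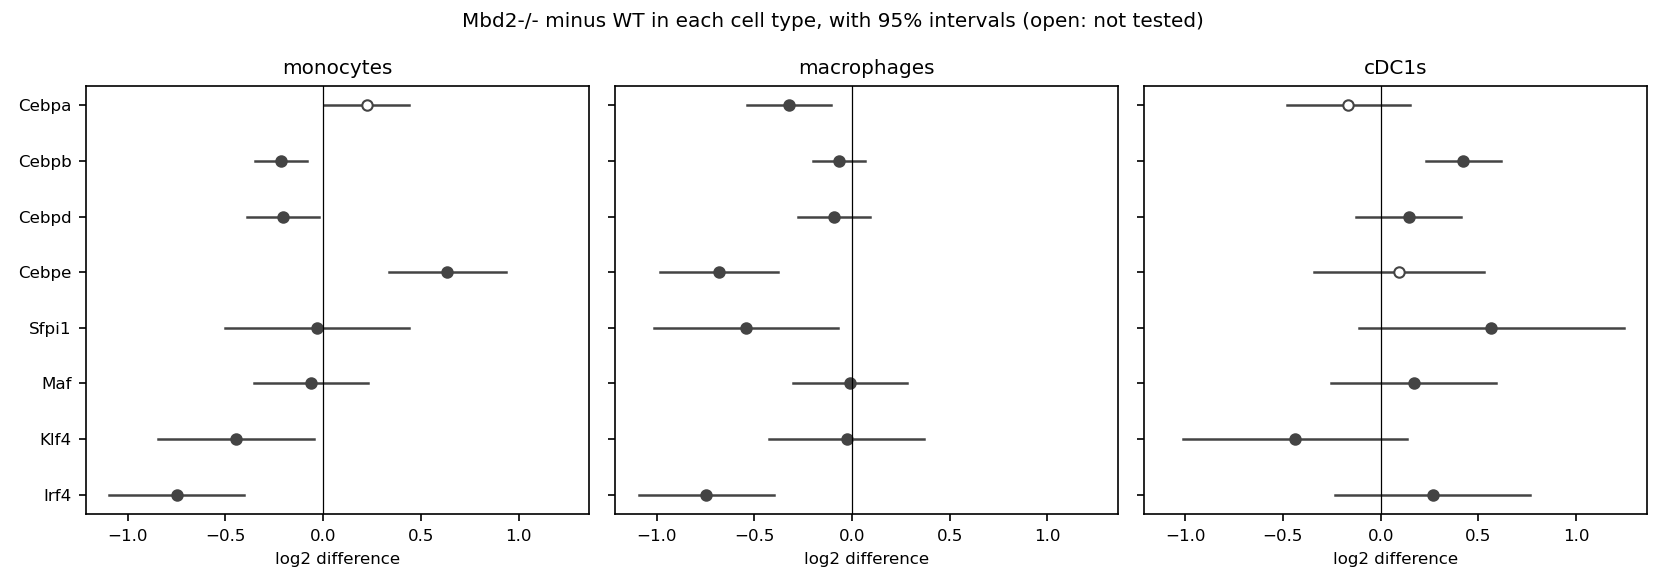
Log2 difference between Mbd2-/- and WT cells (horizontal axis) of the 8 genes above background on any colon array, in monocytes, macrophages and cDC1s, with 95% intervals from limma; open points were not tested. Cebpe is 0.64 higher in Mbd2-/- monocytes and 0.68 lower in Mbd2-/- macrophages, and Irf4 is 0.75 lower in both; the genes were chosen with results of these arrays known.

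Genes that depend on Irf4 or Klf4 in cDC2s, a list of 7, did not share a direction. Of 6 tested in monocytes, Cd209a (a C-type lectin, a mouse relative of DC-SIGN) fell by 1.93 in Mbd2-/- cells (SE 0.29, adjusted p = 0.000912) and Pdcd1lg2 (the checkpoint ligand PD-L2) rose by 1.12 (SE 0.24, adjusted p = 0.0147). In Mbd2-/- macrophages, of 6 tested, Pdcd1lg2 rose by 1.07 (adjusted p = 0.0146) and Mgl2 (a C-type lectin) by 1.41 (adjusted p = 0.0388). The list's median was -0.06 in both cell types. Cd209a was 0.70 lower in Mbd2-/- macrophages (adjusted p = 0.145). In cDC1s none of 7 passed.

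Klf4, which monocytes need for their formation, gave different answers by probe. The brightest probe read 10.03, 10.88, 10.78, 9.77 and 10.06 in WT monocytes, 10.18, 9.76, 9.70, 10.23 and 9.41 in Mbd2-/- monocytes, 10.79, 10.16, 10.91, 10.49 and 10.56 in WT macrophages, and 10.57, 10.69, 10.65, 10.47 and 10.39 in Mbd2-/- macrophages. Mbd2-/- macrophages lay above all Mbd2-/- monocytes, by 0.70 (SE 0.19, adjusted p = 0.00809), and WT macrophages overlapped WT monocytes (0.28, adjusted p = 0.314). In cDC1s it was 10.74 and 10.58 in WT and 10.27, 10.28 and 10.12 in Mbd2-/- samples, a difference of -0.44 (95% interval -1.01 to 0.14).

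The other Klf4 probes followed each other (r = 0.95 over 25 arrays) and not the brightest one (r = 0.21 and 0.16). On the second brightest, WT macrophage array 12 read 6.43 where the other 4 read 8.78 to 9.70, and on the third it read 5.40. Mbd2-/- cDC1 arrays read 8.34, 6.86 and 6.96 on the second probe, against 9.05 and 9.15 in WT. On this probe Klf4 fell by 1.84 from Mbd2-/- macrophages to Mbd2-/- cDC1s (SE 0.54, adjusted p = 0.00814) and by 1.40 on the third (SE 0.54, adjusted p = 0.0388). Arrays 28 and 30 had the lowest mean intensities of the colon arrays (172 and 193), and arrays 12 and 30 the lowest of limma's array weights (0.553 and 0.556); the part of either was not tested. The brightest probe gave -0.33 (SE 0.22, adjusted p = 0.230) for the same comparison.

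**Figure D5:**
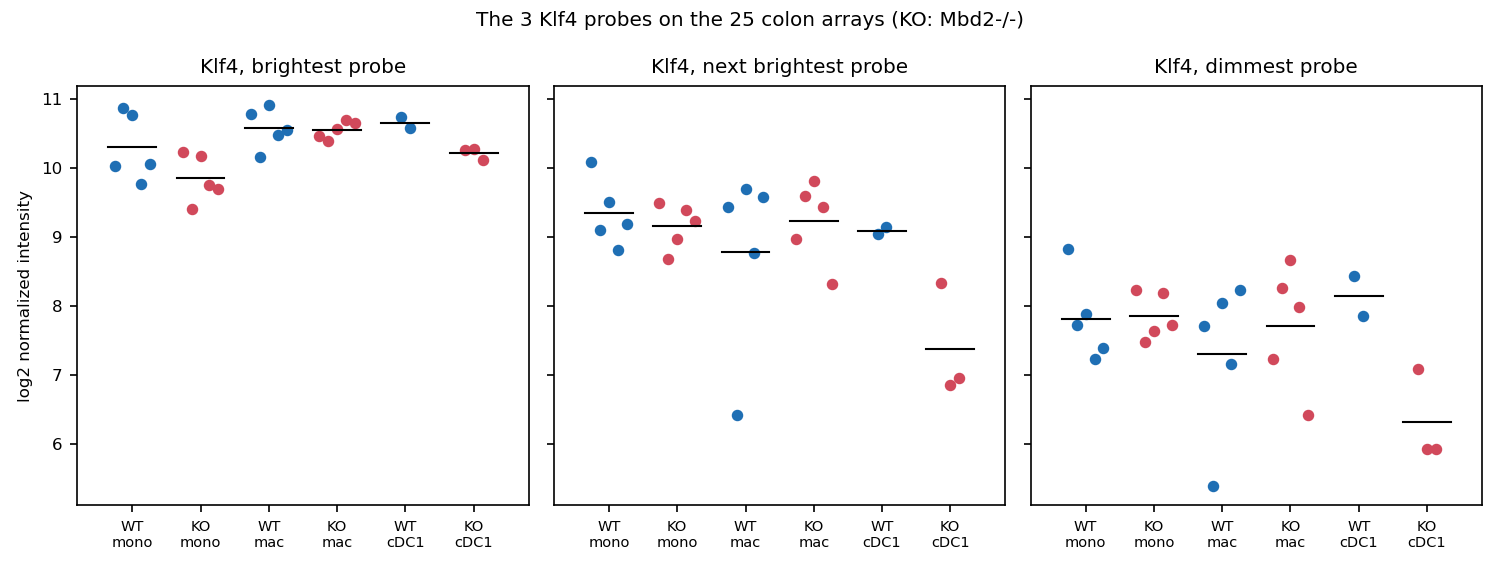
Log2 normalized intensity of the 3 Klf4 probes on the 25 colon arrays (points, with group means as lines; KO, Mbd2-/-). On the 2 dimmer probes WT macrophage array 12 and the Mbd2-/- cDC1 arrays 28 and 30 stand low, which the brightest probe does not show.

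Maf, a factor of resident and Il10 producing macrophages, was higher in macrophages than in monocytes in both genotypes. WT monocytes read 4.63 to 4.92 and Mbd2-/- monocytes 4.42 to 4.94, all below the 4.97 to 5.71 of WT and the 4.98 to 5.54 of Mbd2-/- macrophages. The difference was 0.50 in WT (SE 0.14, adjusted p = 0.0119) and 0.55 in Mbd2-/- cells (SE 0.14, adjusted p = 0.00515), both below the size needed to pass. With genotype it differed by -0.06 in monocytes and -0.01 in macrophages. The probe used carries an accession that RefSeq no longer lists, and the other Maf probe, which matches the current Maf transcript, was above background on 1 colon array only.

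In cDC1s Maf was 4.46 and 4.77 in WT and 5.12, 4.81 and 4.42 in Mbd2-/- samples. It was 0.70 lower than in macrophages in WT (SE 0.19, adjusted p = 0.00455) and 0.52 lower in Mbd2-/- cells (SE 0.16, adjusted p = 0.0112). Without array 23 the WT difference was -0.55 (adjusted p = 0.113), and without array 30 the Mbd2-/- difference was -0.35 (adjusted p = 0.128).

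Nr4a1, the nuclear receptor needed for patrolling Ly6C low monocytes, was not above background on any colon array, with levels of 4.18 to 4.49, and was not tested. Of 7 genes that depend on it in patrolling monocytes, 6 were tested. Cx3cr1, the fractalkine receptor, was higher in macrophages than in monocytes, by 2.07 in WT and 2.53 in Mbd2-/- cells, and Ace, the angiotensin converting enzyme, fell in both (log2 difference -2.35 in Mbd2-/- cells). None of the 6 passed with genotype in any cell type (smallest adjusted p = 0.0249, in macrophages). Among 18 relatives of the Maf, Klf, Nr4a and Irf families, none passed with genotype in monocytes or macrophages (17 tested in each, smallest adjusted p 0.0246 and 0.0605) and Nr4a2 fell by 1.28 in Mbd2-/- cDC1s.

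Of the other myeloid lineage factors, 14 on the array, Spic passed with genotype in macrophages. Spic, the Ets factor of red pulp and iron-recycling macrophages, had mean levels of 8.63 in WT and 10.19 in Mbd2-/- macrophages, a rise of 1.56 (SE 0.20, adjusted p = 0.000120) with no overlap, and was 0.51 higher in Mbd2-/- monocytes (adjusted p = 0.202). None of the 12 tested in monocytes or the 13 in cDC1s passed with genotype. Irf8 and Zbtb46, factors of cDC identity, were higher in cDC1s than in monocytes or macrophages in both genotypes, and Zeb2, Spic and Tcf4 lower.

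In all, 0 of 7 factors tested passed between WT macrophages and monocytes and 0 of 8 between the Mbd2-/- ones (3 and 5 without overlap, beside 17.8% and 22.8% of all genes). Against WT cDC1s, Cebpb and Sfpi1 passed from macrophages (8 tested, Cebpe among them), beside 16.4% of all genes. From monocytes 2 of 7 passed (Cebpb and Sfpi1), beside 15.7%. Against Mbd2-/- cDC1s, 1 of 7 passed from macrophages (Cebpb, 14.3% beside 17.3% of all genes). From monocytes Cebpb passed (8 tested, Cebpe among them), beside 18.2%. Cebpe also met the rule against WT macrophages and against Mbd2-/- monocytes. It is at background in cDC1s and entered only through the other arrays, where it is high, so it is not counted here. Each comparison of 2 cell types shares its arrays with the others of that genotype.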

How the data were processed

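RNA of FACS-purified cells was hybridised to Illumina MouseWG-6 BeadChips by the authors, who deposited bead intensity and detection p-value per probe, exported without normalization or background subtraction, for 45281 probes and 936 negative controls. The authors analysed their data with lumi and limma, per the labels; versions are not given in the sources used here. The number of arrays limits the precision. Columns of the table that match no sample (3) were not used.

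The intensities of the 25 colon arrays were corrected with normexp on the negative controls (offset 16), log2 transformed and quantile normalized. One limma model (R 4.3.3, limma 3.58.1) over the 6 groups gave 9 comparisons, each two-sided and adjusted by Benjamini-Hochberg over all probes tested. A probe was tested if detected (p under 0.05) on a number of arrays of the 2 compared groups no smaller than the size of the smaller one. A gene was taken by its brightest probe tested, and passed at an adjusted p under 0.05 and a log2 difference of at least 1. P-values measure the spread between arrays, each of 1 or several mice. T cell arrays, 1 per genotype, stayed out of the fit. The script was tested on simulated data.

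The genes and lists were chosen with earlier results of these data known. Named were all 9 factors, from each list at most 4 genes that passed by size, and the 5 genes most correlated with Cebpe; genes named without passing and the marker genes illustrate a value. Alternatives were other background corrections, offsets, normalizations, filters, thresholds, probes, array weights, the runs of 6 arrays as a block, arrays numbered 10 apart as a block, the compared groups alone, and leaving out each array.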

Additional observations from a re-analysis of the deposited data

Results flagged for a closer look

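Among 32 groups of 5 arrays tested for an outlying array (8 factors in 4 groups), 1 stood apart from its group, Maf on Mbd2-/- monocyte array 8, the lowest of its group at 4.42 and not above background, where the others read 4.79 to 4.94. Chance flags about 1 in 20 groups.

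Gaps in the genotype difference between cell types are given for 3 factors, picked by limma's test of that gap over all genes. For Cebpe this test cannot decide anything, because the gene was chosen on its opposite genotype differences in monocytes and macrophages. The other factors were chosen with results of these arrays known, so all the values are a description and no p is given. For Cebpe the difference in macrophages minus that in monocytes was -1.32 (-0.68 against 0.64). For Cebpb the difference in cDC1s exceeded that in monocytes by 0.64 and that in macrophages by 0.49. For Irf4 the difference in cDC1s minus that in macrophages was 1.01 (0.27 against -0.75). Gaps of the size seen for Irf4 that were not picked were those of Sfpi1 between cDC1s and macrophages (1.11) and of Irf4 between cDC1s and monocytes (1.02). Genotype and run of arrays cannot be told apart in cDC1s.

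On the splenic CD4 T cell arrays, labelled as from a T cell transfer colitis and in no comparison, 7 of the 9 factors were above background on at least 1 of the 2 arrays, with all 27 arrays normalized together. Cebpe read 5.70 on the WT array, with each of its 4 probes above background, and 4.51 on the Mbd2-/- array, with none above it. Cebpb read 8.47 and 8.98, Cebpd 7.03 and 6.46, Irf4 7.57 and 7.86 and Maf 5.63 and 5.79 (WT and Mbd2-/-). Sfpi1 was above background on the Mbd2-/- array only (4.76) and Klf4 on the WT array only (4.61). With 1 array per genotype there is no replicate check.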

How the results depend on the processing

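Of 805 recomputed cell type differences, 727 kept their direction and their side of the adjusted p threshold. The minimum log2 difference was not part of this count, and Cebpe between macrophages and monocytes was judged without a p. The count is therefore not one of calls kept. Sfpi1 in WT cDC1s against macrophages no longer passed without background correction or with offset 50, and neither is counted as a change. Of 373 genotype differences 23 changed sign. Counts against cDC1s in this section include Cebpe where it met the rule, as it did in the main fit for the next 2 comparisons. Without background correction or with offset 50, 1 factor (Cebpb) passed for WT cDC1s against macrophages and 1 for Mbd2-/- cDC1s against monocytes. With median scaling 1 (Irf4) passed for Mbd2-/- macrophages against monocytes, and the Irf4 difference of Mbd2-/- cDC1s and macrophages turned to -0.73 (adjusted p = 0.0412). With any probe counted, 2 passed for Mbd2-/- cDC1s against macrophages. With no minimum fold change 4 of 7, 6 of 8 and 4 of 7 passed in WT (macrophages against monocytes, cDC1s against macrophages, cDC1s against monocytes). Of all genes, 3360 of 12307, 5596 of 14388 and 5281 of 14155 did. In Mbd2-/- cells 5 of 8, 3 of 7 and 5 of 8 passed in that order, beside 3768 of 12290, 6440 of 13319 and 6289 of 12771 genes. With genotype 2 of 7, 2 of 8 and 1 of 6 passed (monocytes, macrophages, cDC1s), beside 298 of 11992, 892 of 12515 and 1147 of 13051 genes. These genotype counts repeat values that Cebpe was chosen on and support nothing. The smaller threshold admits more by construction. The dimmer Klf4 probes gave -1.54 and -1.77 for Mbd2-/- cDC1s against monocytes and one gave -0.14 for macrophages against monocytes. Leaving out 1 array at a time gave 1 to 2 factors for WT cDC1s against monocytes (1 without WT cDC1 array 23), 2 to 4 against macrophages, 2 to 3 for Mbd2-/- cDC1s against monocytes, 1 to 1 against macrophages and 0 to 0 elsewhere. For the other changes the cause was not tested. Over all genes, the number passing with genotype in monocytes moved from 54 to 16 without background correction. In macrophages it moved from 160 to 63 without it, to 37 with the 2 groups alone, and with 1 array left out from 58 (without array 12) to 257 (without array 15). In cDC1s it moved from 231 to 59 without background correction, to 0 with the 2 groups alone and to 667 without array 26, so the shares passing with genotype move by over 1.5 times. No paired analysis was possible because the array numbers are not shared between groups; a block of arrays numbered 10 apart, which no label calls a pairing (correlation 0.056), left 0 factors passing between macrophages and monocytes in each genotype, with 578 genes in WT and 675 in Mbd2-/- cells. Probes near background, Cebpe, Cebpa and Maf among them, are limited by signal over background.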
